A study of Homo sapiens with 16 samples.

Results

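The collagen and laminin genes of 2 hepatocellular carcinoma cell lines, Huh7 and Hep3B, were followed in cells that had been made resistant to Sorafenib, a kinase inhibitor given for liver cancer. Members were taken by name from the whole table, as every gene whose symbol has the form of a collagen chain (COL, a number, A, a number) or of a laminin α, β or γ chain (LAMA, LAMB or LAMC with a number), without antisense genes and pseudogenes. This gave 56 of 26258 genes, 44 for collagen chains and 12 for laminin chains. Poly(A) RNA was sequenced in 16 libraries, with 2 replicates of each of 8 groups. The parental and DMSO groups of both lines are labelled untreated, DMSO being the solvent of the drug. How long the DMSO cells were kept in DMSO is not given in the sources used here. IR cells had been selected with rising and CR cells with constantly high concentrations of Sorafenib, and both carry a label of 7 µM Sorafenib, the concentration that maintained the resistance. The growth and treatment notes name the Huh7 cells alone. Whether an IR or CR line is 1 clone is not given in the sources used here. The labels do not say that the 2 replicates came from separate cultures, while the study's methods speak of biological triplicates, so the p-values measure the spread between these samples, which may be technical.

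Collagens are triple helices of 3 α chains. Fibrillar collagens such as types I, III and V form the fibres of connective tissue, fibril-associated collagens coat them, and collagen IV forms the sheet-like network of basement membranes. Laminins are cross-shaped trimers of an α, a β and a γ chain that lie in the same membranes and bind integrins on the cell. In the liver, fibrillar collagen is known mainly as a product of stellate cells and fibroblasts, and hepatocytes face a matrix that is poor in laminin.

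Library sizes lay between 46613302 and 76860251 reads, so 3 reads, the most that a count of 0 allows, were worth 0.0390 to 0.0644 CPM (reads of a gene scaled to a common library size). Only counting error is covered by that limit. Replicates of Huh7 DMSO and Huh7-IR cells lay farthest apart, with an SD of the log2 difference between replicates of 0.571 and 0.566, against 0.236 to 0.310 in the other groups. Replicates also drifted along GC content in most groups, with Spearman coefficients across genes from -0.537 in Huh7 parental to 0.515 in Huh7 DMSO cells, and the transcripts of the 38 tested members had a median GC content of 53.8% against 47.7% for all tested genes. The median change of all tested genes was 0.192 on the log2 scale in Huh7-IR and 0.108 in Hep3B-CR cells, and changes are to be read against it. The hepatocyte identity of the lines was visible in parental cells, where the summed level of 9 hepatocyte markers was 10690 to 16240 CPM in Huh7 and 17130 to 21230 CPM in Hep3B. In resistant cells that sum was 111 to 460.0 CPM in Huh7-IR, 1369 to 2791 CPM in Huh7-CR, 3573 to 10340 CPM in Hep3B-IR and 1309 to 2135 CPM in Hep3B-CR cells.

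Collagen and laminin transcripts together made up 0.187% to 0.519% of the reads of a library, and which members carried that share differed by line and by treatment. In Huh7 parental cells COL14A1 alone gave 48.1% and 51.9% of all member CPM, whereas in Huh7-IR cells LAMB1 led with 27.2% and 20.4%. LAMC1 led in Hep3B parental cells with 44.2% and 45.0%, and LAMB1 in Hep3B-IR and Hep3B-CR cells with 35.6% to 42.0%. The number of members with at least 1 CPM was 28 and 21 in Huh7 parental against 34 and 33 in Huh7-IR and 31 and 31 in Huh7-CR cells. In Hep3B it was 19 and 21 in parental, 25 and 25 in IR and 22 and 23 in CR cells.

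**Figure D1:**
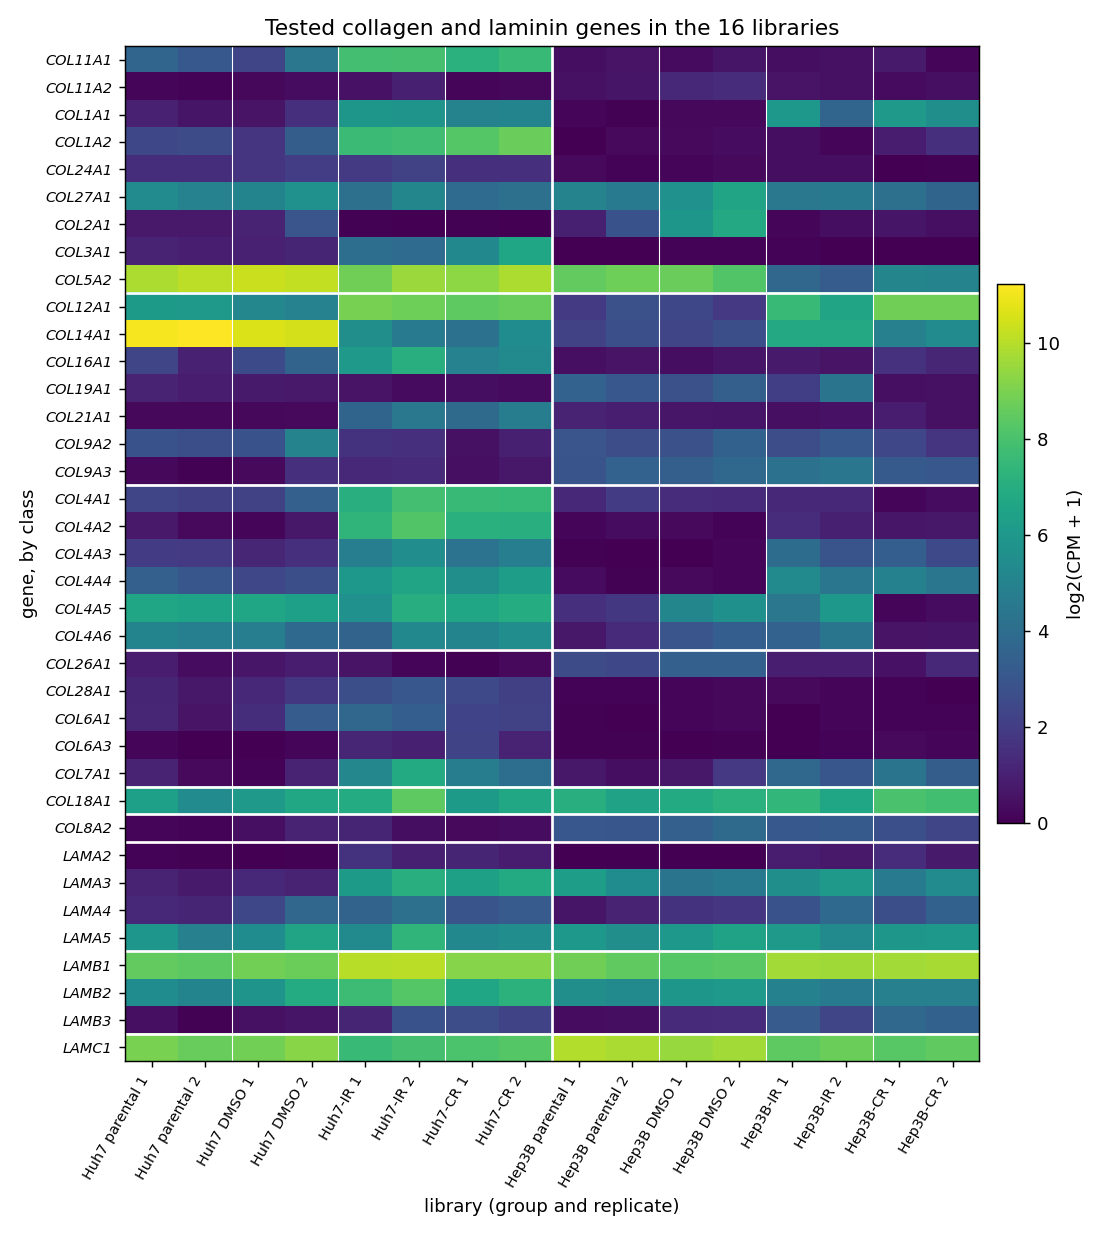
Level of each of 37 tested members (rows, grouped by class) in each of the 16 libraries (columns), as log2(CPM + 1), with dark blue low and yellow high. COL14A1 is brightest in Huh7 parental and DMSO libraries, and COL4A1 to COL4A4 turn brighter in Huh7-IR and Huh7-CR cells.

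Each resistant line was compared with the parental cells of its line, to ask which matrix genes had changed with resistance. A gene was called when its Benjamini-Hochberg adjusted p from limma was under 0.05 and its log2 fold change of CPM + 1 was at least 0.58 in either direction. Only genes that reached 1 CPM in 2 or more libraries were tested, and 38 of the 56 members did. In Huh7-IR cells 25 of the 56 members rose and 3 fell, where 48.8% of all 15019 tested genes were called, 31.1% higher and 17.8% lower. In Huh7-CR cells 21 rose and 4 fell, beside 34.5% of all tested genes, 20.9% higher and 13.6% lower. In Hep3B-IR cells 14 rose and 3 fell, beside 27.1%, 15.7% higher and 11.4% lower. In Hep3B-CR cells 11 rose and 6 fell, beside 32.2%, 20% higher and 12.3% lower.

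Since only some members passed the filter, the count over all 56 was also taken with no filter on low values. Then 28 members in IR and 24 in CR cells of Huh7 were called, beside 30.7% and 20.6% of all genes with a read, and 15 in IR and 16 in CR cells of Hep3B, beside 15.7% and 19%. The median change over all 56 members, tested or not, was 0.175 in IR and 0.102 in CR cells of Huh7, and 0.005 in IR and 0 in CR cells of Hep3B on the log2 scale, against medians from 0 to 0.005 over every gene of the table. The IR and the CR comparison of a line share their 2 parental libraries, so values are given side by side. Leaving out 1 library at a time ended 16 of the 87 calls, and nearly all of these are given with the genes they concern.

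In all 4 resistant lines 9 members were called higher (COL12A1, COL1A1, COL4A3, COL4A4, COL7A1, LAMA2, LAMA4, LAMB1 and LAMB3), where 793 of all tested genes, 5.28%, were called higher in all 4. LAMC1 alone was called lower in all 4, as were 432 of all tested genes, 2.88%. LAMC1 and the 9 others are described with the classes they belong to.

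Of the 11 fibrillar collagen genes, 6 rose and 1 fell in Huh7-IR, 4 rose and 1 fell in Huh7-CR, and 1 rose and 1 fell in each resistant Hep3B line. Of all tested genes 31.1% and 20.9% were called higher in IR and CR cells of Huh7, and 17.8% and 13.6% lower. For IR and CR cells of Hep3B these shares were 15.7% and 20% higher, and 11.4% and 12.3% lower. COL1A1 (chr17, 48261462 to 48278993 of GRCh37, as are all gene positions), the α1 chain of type I collagen, was close to absent in parental cells, with 1.02 and 0.562 CPM in Huh7 and 0.162 and 0.0422 CPM in Hep3B. It reached 60.7 and 54.4 CPM in IR and 31.1 and 32.4 CPM in CR cells of Huh7, and 62.9 and 11.5 CPM in IR and 66.2 and 47.3 CPM in CR cells of Hep3B. Every resistant library lay above every parental and DMSO library of either line, and the Hep3B-IR replicates were far apart. The log2 fold change was 5.04 (SE 0.55, adjusted p = 1.29e-05) in IR and 4.21 (SE 0.55, adjusted p = 9.1e-05) in CR cells of Huh7, and 4.69 (SE 0.55, adjusted p = 6.75e-05) in IR and 5.70 (SE 0.55, adjusted p = 1.45e-05) in CR cells of Hep3B.

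COL1A2 (chr7, 94024207 to 94060539), the α2 chain that joins COL1A1 in the usual type I trimer, followed it in Huh7 and not in Hep3B. Its levels were 4.38 and 5.16 CPM in Huh7 parental, 202 and 218 CPM in Huh7-IR and 304 and 405 CPM in Huh7-CR cells. In Hep3B they were 0.0269 and 0.211 CPM in parental, 0.348 and 0.128 CPM in IR and 0.847 and 1.87 CPM in CR cells, so all Hep3B libraries stayed under the lowest Huh7 library. The log2 fold change was 5.20 (SE 0.39, adjusted p = 7.62e-07) in Huh7-IR and 5.93 (SE 0.39, adjusted p = 4.03e-07) in Huh7-CR, against 0.14 (SE 0.39, adjusted p = 0.835) in Hep3B-IR and 1.04 (SE 0.39, adjusted p = 0.053) in Hep3B-CR cells. The last value was called with edgeR and DESeq2 on the reads. Per kilobase of transcript, the mean level in Hep3B-IR and Hep3B-CR cells was 6.30 and 9.60 CPM per kb for COL1A1 and 0.0469 and 0.268 CPM per kb for COL1A2.

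COL3A1, which forms type III fibres, was likewise a Huh7 gene. It had 1.14 and 0.951 CPM in Huh7 parental, 15.7 and 14.3 CPM in Huh7-IR and 36.6 and 98.9 CPM in Huh7-CR cells, and at most 0.0822 CPM in any Hep3B library. It rose by 2.97 (SE 0.32, adjusted p = 1.09e-05) in Huh7-IR and 4.91 (SE 0.32, adjusted p = 3.05e-07) in Huh7-CR cells on the log2 scale. COL11A1, a minor fibrillar chain best known from cartilage, rose from 11.7 and 7.61 CPM to 236 and 239.6 CPM in Huh7-IR and 143 and 187 CPM in Huh7-CR cells, by 4.51 (SE 0.49, adjusted p = 1.33e-05) and 3.98 (SE 0.49, adjusted p = 6.2e-05). It stayed at or below 0.755 CPM in Hep3B.

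COL5A2 (chr2, 189896624 to 190090038), the α2 chain of type V collagen, drew the most reads of the fibrillar genes in parental cells and moved the other way. It had 930.2 and 1103 CPM in Huh7 parental, 448 and 749 CPM in Huh7-IR and 647 and 908 CPM in Huh7-CR cells. In Hep3B it fell from 371 and 424 CPM in parental to 12.04 and 8.70 CPM in IR and 33.9 and 31.2 CPM in CR cells. The Hep3B groups lay far apart, with parental means 38.3 and 12.2 times those of IR and CR cells and log2 fold changes of -5.14 (SE 0.25, adjusted p = 1e-07) and -3.57 (SE 0.25, adjusted p = 1.47e-06). In Huh7 the change was -0.81 (SE 0.25, adjusted p = 0.0163) in IR and -0.40 (SE 0.25, adjusted p = 0.228) in CR cells, and the first was no longer called without Huh7 parental replicate 2 (-0.68, adjusted p = 0.105) or Huh7-IR replicate 1 (-0.43, adjusted p = 0.176). COL5A1, whose product pairs with COL5A2 in type V collagen, had at most 0.0393 CPM in any library, and COL5A3 at most 1.02 CPM.

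The other fibrillar members gave fewer calls. COL27A1 fell in Huh7-CR cells, from 42.2 and 30.5 CPM to 14.3 and 16.6 CPM (log2 fold change -1.17 (SE 0.36, adjusted p = 0.0214)), and this call was lost without Huh7 parental replicate 1 (-0.94, adjusted p = 0.138), Huh7-CR replicate 1 (-1.06, adjusted p = 0.113) or Huh7-CR replicate 2 (-1.27, adjusted p = 0.0576). In Hep3B-CR cells it had 16.5 and 11.3 CPM against 31.3 and 23.0 CPM in parental cells, with -0.93 (adjusted p = 0.0607), and was called there with edgeR (-1.08), DESeq2 (-1.10) and GC centring (-1.27) among other alternatives. COL24A1 and COL11A2 were called higher in Huh7-IR cells at 0.59 and 0.65, both from under 4 CPM, and neither call held without Huh7-IR replicate 2 (0.42 for COL24A1 and 0.42 for COL11A2). The COL24A1 call was also lost with edgeR (0.65, adjusted p = 0.152), DESeq2 (0.63, adjusted p = 0.173), quantile normalization (0.043) and DMSO cells as reference (0.16). With GC centring the COL11A2 value turned to -0.06 (adjusted p = 0.812). COL2A1, the cartilage collagen, was called in no resistant line by limma against parental cells. It had 0.147 and 0.327 CPM in Hep3B-IR and 0.556 and 0.381 CPM in Hep3B-CR cells, with -1.61 and -1.36 (adjusted p = 0.0502 and 0.0808). It was called lower with edgeR on the reads in both (-3.99 and -3.05) and in both resistant lines of Huh7 (-4.76 and -4.65), where it had at most 0.0332 CPM, and against DMSO cells of Hep3B (-6.04 and -5.79). It differed between untreated groups of Hep3B, with 0.996 and 6.11 CPM in parental and 59.9 and 107 CPM in DMSO cells.

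**Figure D2:**
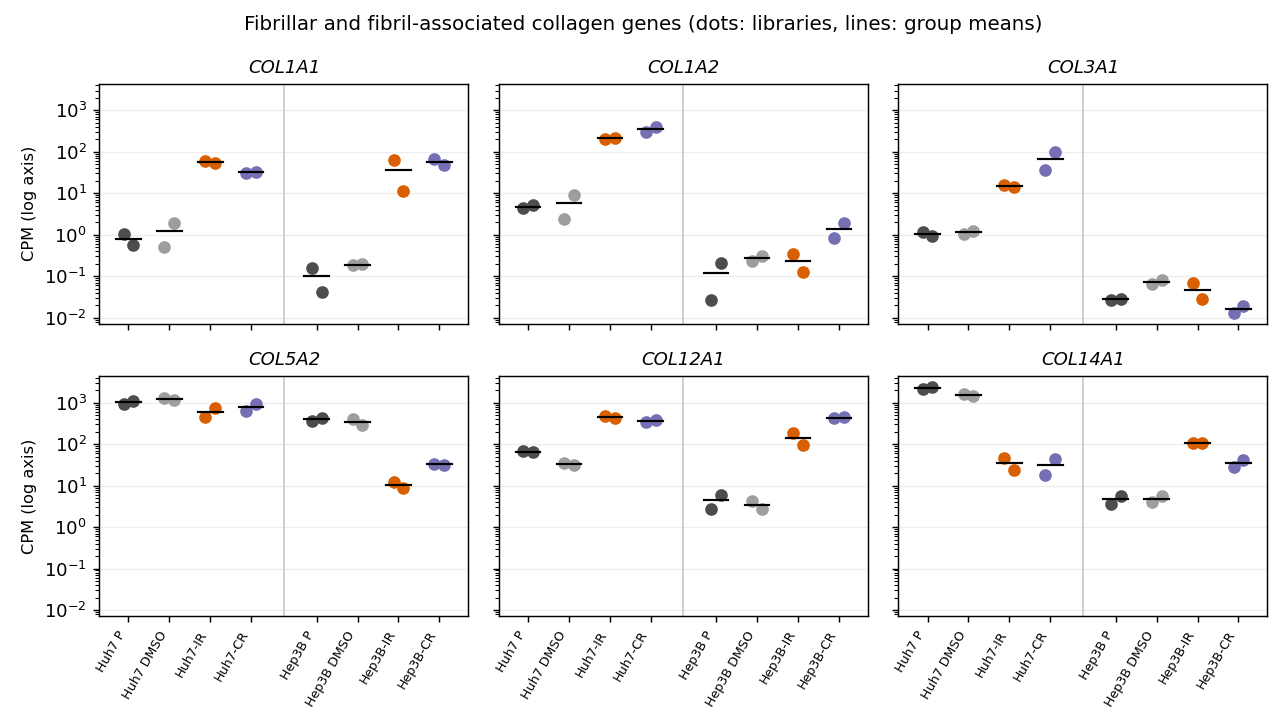
CPM on a log axis of 6 fibrillar and fibril-associated collagen genes in the 8 groups, with 1 dot per library, a line at each group mean and P for parental. COL1A1 is high in all 4 resistant lines, COL1A2 and COL3A1 in resistant Huh7 cells, and COL14A1 moves down in Huh7 and up in Hep3B.

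Of the 10 fibril-associated collagen genes, 4 rose and 1 fell in Huh7-IR, 3 rose and 2 fell in Huh7-CR, 3 rose in Hep3B-IR, and 2 rose and 1 fell in Hep3B-CR cells. Not all of the 10 were tested, and the shares of all tested genes were those given with the fibrillar genes. COL14A1 (chr8, 121072019 to 121385812) codes for collagen XIV, which binds to the surface of collagen fibrils, and it moved in opposite directions in the 2 lines. It drew more reads than any other member in Huh7 parental cells, with 2188 and 2398 CPM, and had 1582 and 1430 CPM in DMSO cells. In Huh7-IR and Huh7-CR cells 45.3 and 23.3 CPM and 17.6 and 43.6 CPM were left, a parental mean 66.8 and 75.0 times as high. In Hep3B it rose from 3.62 and 5.74 CPM to 108 and 108 CPM in IR and 28.8 and 42.0 CPM in CR cells, so the resistant lines of both origins ended within the range from 17.6 to 108 CPM. The log2 fold change was -6.09 (SE 0.38, adjusted p = 1.66e-07) and -6.31 (SE 0.38, adjusted p = 1.66e-07) in Huh7-IR and Huh7-CR, against 4.29 (SE 0.38, adjusted p = 7e-06) and 2.68 (SE 0.38, adjusted p = 0.0002) in Hep3B-IR and Hep3B-CR cells.

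COL12A1 (chr6, 75794042 to 75915983), the related chain of collagen XII, rose in all 4. It had 67.9 and 64.4 CPM in Huh7 parental, 483 and 436 CPM in Huh7-IR and 346 and 390.0 CPM in Huh7-CR cells. Hep3B started lower, at 2.77 and 5.99 CPM, and reached 190.5 and 92.8 CPM in IR and 437 and 439 CPM in CR cells. No resistant library overlapped a parental or DMSO library of its line, and the Hep3B-CR and Huh7-IR groups ended at similar levels. The change was 2.78 (SE 0.32, adjusted p = 1.83e-05) in IR and 2.46 (SE 0.32, adjusted p = 8.3e-05) in CR cells of Huh7, and 4.71 (SE 0.32, adjusted p = 9.9e-07) in IR and 6.42 (SE 0.32, adjusted p = 1.03e-07) in CR cells of Hep3B.

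COL16A1 and COL21A1 joined the Huh7 pattern. COL16A1 rose from 4.07 and 1.06 CPM to 65.0 and 130.5 CPM in Huh7-IR and 30.4 and 39.0 CPM in Huh7-CR cells, by 4.85 and 3.45 on the log2 scale. COL21A1 rose from 0.175 and 0.174 CPM to 11.3 and 21.3 CPM and 13.8 and 25.8 CPM, by 3.82 and 4.08. Neither was called in a resistant Hep3B line, where COL16A1 reached at most 2.03 CPM and COL21A1 at most 0.821 CPM.

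The remaining fibril-associated chains gave few calls. COL19A1 fell in Hep3B-CR cells, from 10.4 and 7.33 CPM to 0.357 and 0.419 CPM (log2 fold change -2.81 (SE 0.50, adjusted p = 0.00101)). Its Hep3B-IR replicates, 3.18 and 18.7 CPM, lay on either side of the parental ones. COL9A2, a chain of the cartilage collagen IX, fell in Huh7-CR cells from 6.21 and 5.49 CPM to 0.433 and 1.01 CPM (-2.01 (SE 0.53, adjusted p = 0.00951)), a call lost without Huh7 parental replicate 1 (-1.94, adjusted p = 0.0512) or Huh7-CR replicate 1 (-1.77, adjusted p = 0.0748). COL9A3 was called higher in Huh7-IR (1.17) and Hep3B-IR cells (1.07). The first was lost without Huh7 parental replicate 2 (1.08, adjusted p = 0.059) and with GC centring (0.36), and the second without Hep3B parental replicate 1 (0.76, adjusted p = 0.193) or either Hep3B-IR replicate (1.18 and 0.97, adjusted p = 0.0744 and 0.123) and with edgeR (1.06, adjusted p = 0.231).

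Collagen IV is built from 6 genes that lie as 3 head-to-head pairs, and all 6 passed the filter on low values. The RefSeq start sites of COL4A1 and COL4A2 lie 127 bases apart on chromosome 13, those of COL4A3 and COL4A4 419 bases apart on chromosome 2, and those of COL4A5 and COL4A6 380 bases apart on chromosome X. COL4A1 and COL4A2 chains form the collagen IV of nearly all basement membranes, COL4A3, COL4A4 and COL4A5 chains that of the kidney glomerulus and the lung, and COL4A6 is known from epithelial membranes with COL4A5. One start site region of each pair is shown, since the genes of a pair share the stretch between their starts and the pairs moved differently. Each runs from 250 bases before to 49 bases after the first base of the transcript. The sequences are those of RefSeq on GRCh38.p14, and each matched GRCh37 once, where COL4A1 (minus strand) is at chr13:110959455-110959754, COL4A3 (plus strand) at chr2:228029090-228029389 and COL4A5 (plus strand) at chrX:107682818-107683117. Capitals mark matches, on either strand, to 1 of 5 short motifs (TGANTCA for AP-1, GGAATG for TEAD, ACGTG for HIF, CACCTG for SNAI and ZEB, GGGCGG for SP1).
COL4A1: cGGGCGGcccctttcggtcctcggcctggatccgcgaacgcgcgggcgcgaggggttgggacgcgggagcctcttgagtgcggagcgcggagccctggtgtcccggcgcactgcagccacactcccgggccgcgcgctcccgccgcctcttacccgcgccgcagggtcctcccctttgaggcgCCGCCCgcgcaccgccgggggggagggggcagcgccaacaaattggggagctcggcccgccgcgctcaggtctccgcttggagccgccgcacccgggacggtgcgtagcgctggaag
COL4A3: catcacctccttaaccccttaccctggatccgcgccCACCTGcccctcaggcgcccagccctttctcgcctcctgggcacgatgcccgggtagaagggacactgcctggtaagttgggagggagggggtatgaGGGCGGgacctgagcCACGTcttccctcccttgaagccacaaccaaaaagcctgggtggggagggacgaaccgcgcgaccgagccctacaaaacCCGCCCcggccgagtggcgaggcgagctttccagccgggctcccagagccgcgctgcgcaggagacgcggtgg
COL4A5: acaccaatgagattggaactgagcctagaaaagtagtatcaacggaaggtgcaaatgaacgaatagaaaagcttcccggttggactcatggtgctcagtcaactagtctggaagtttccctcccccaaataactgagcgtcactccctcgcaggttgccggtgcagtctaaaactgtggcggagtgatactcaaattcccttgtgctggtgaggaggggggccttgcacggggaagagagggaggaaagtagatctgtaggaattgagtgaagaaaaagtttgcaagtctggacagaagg
The COL4A1 stretch held 2 matches, both to the SP1 motif, at 249 and 67 bases before the start, and the second lies between the starts of COL4A1 and COL4A2. COL4A3 held 2 SP1 matches, 1 HIF match and 1 SNAI and ZEB match, and COL4A5 held none of the 5 motifs. The GC content of the stretches was 76.7%, 67.7% and 49.3%. A match is a run of letters and not a known binding site.

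The COL4A1 and COL4A2 pair rose in both resistant lines of Huh7. COL4A2 (chr13, 110958159 to 111165556) had 0.699 and 0.201 CPM in Huh7 parental cells, 163 and 292 CPM in Huh7-IR and 139 and 132 CPM in Huh7-CR cells, means 505 and 302 times the parental one. COL4A1 (chr13, 110801310 to 110959504) had 4.12 and 3.40 CPM, 137 and 232 CPM and 190.0 and 181 CPM in the same groups. The resistant Huh7 libraries of both genes lay far above every other library. The log2 fold change was 7.26 (SE 0.29, adjusted p = 5.35e-09) and 6.58 (SE 0.29, adjusted p = 1.9e-08) for COL4A2 and 5.24 (SE 0.36, adjusted p = 3.65e-07) and 5.30 (SE 0.36, adjusted p = 4.76e-07) for COL4A1, and COL4A2 had the highest value of any member in both resistant lines of Huh7.

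In Hep3B neither gene of this pair passed 3 CPM. COL4A1 had 1.43 and 2.95 CPM in parental, 1.45 and 1.35 CPM in IR and 0.146 and 0.286 CPM in CR cells, and the fall in Hep3B-CR of -1.35 (SE 0.36, adjusted p = 0.0108) was lost without Hep3B parental replicate 2 (-1.0, adjusted p = 0.114) or Hep3B-CR replicate 1 (-1.27, adjusted p = 0.0647). COL4A2 was called higher in Hep3B-IR cells, from 0.135 and 0.281 CPM to 1.73 and 1.01 CPM (0.96 (SE 0.29, adjusted p = 0.0241)), a call lost without Hep3B parental replicate 1 (0.87, adjusted p = 0.117), Hep3B parental replicate 2 (1.04, adjusted p = 0.0749) or Hep3B-IR replicate 1 (0.74, adjusted p = 0.180) and with quantile normalization (0.75, adjusted p = 0.0576). Counting was not stated to use strand, and the antisense gene COL4A2-AS1 had at most 0.0268 CPM.

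The COL4A3 and COL4A4 pair rose in both lines. COL4A3 (chr2, 228029340 to 228179508) had 2.92 and 2.79 CPM in Huh7 parental, 27.2 and 44.5 CPM in Huh7-IR and 18.2 and 27.0 CPM in Huh7-CR cells, and in Hep3B 0.0404 and 0.0281 CPM in parental, 14.7 and 6.44 CPM in IR and 9.11 and 4.51 CPM in CR cells. COL4A4 (chr2, 227867430 to 228029169) had 10.00 and 7.08 CPM, 62.2 and 93.7 CPM and 46.2 and 76.2 CPM in the Huh7 groups and 0.242 and 0.0563 CPM, 39.1 and 20.4 CPM and 29.8 and 20.1 CPM in the Hep3B groups. No resistant library of either gene overlapped a parental or DMSO library of its line. For COL4A3 the log2 fold change was 3.22 (SE 0.37, adjusted p = 1.84e-05) in IR and 2.59 (SE 0.37, adjusted p = 0.000171) in CR cells of Huh7, and 3.39 (SE 0.37, adjusted p = 3.72e-05) in IR and 2.85 (SE 0.37, adjusted p = 0.000114) in CR cells of Hep3B. For COL4A4 it was 3.04 (SE 0.34, adjusted p = 1.47e-05), 2.68 (SE 0.34, adjusted p = 6.81e-05), 4.68 (SE 0.34, adjusted p = 1.46e-06) and 4.48 (SE 0.34, adjusted p = 2.43e-06) in the same order.

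The COL4A5 and COL4A6 pair was high in all Huh7 groups and moved in Hep3B. COL4A5 (chrX, 107683068 to 107940775) had 99.6 and 89.3 CPM in Huh7 parental, 50.2 and 126 CPM in Huh7-IR and 98.4 and 123 CPM in Huh7-CR cells, with -0.24 and 0.22 on the log2 scale and adjusted p = 0.677 and 0.741. In Hep3B it had 1.84 and 2.55 CPM in parental, 35.0 and 48.5 CPM in DMSO, 21.1 and 62.8 CPM in IR and 0.159 and 0.286 CPM in CR cells. Hep3B-IR thus lay at the level of the DMSO cells and Hep3B-CR under every other group. Against parental cells the change was 3.56 (SE 0.45, adjusted p = 0.000115) in Hep3B-IR and -1.38 (SE 0.45, adjusted p = 0.0294) in Hep3B-CR cells, and against DMSO cells the Hep3B-IR value was -0.17 (adjusted p = 0.809). The Hep3B-CR fall was lost when any 1 of its 4 libraries was left out (-1.54 to -1.22 on the log2 scale, adjusted p from 0.0663 to 0.150).

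COL4A6 (chrX, 107398837 to 107682727) followed its neighbour, with 0.66 and 1.52 CPM in Hep3B parental, 6.75 and 9.35 CPM in DMSO, 10.6 and 19.7 CPM in IR and 0.49 and 0.552 CPM in CR cells. It rose in Hep3B-IR by 2.92 (SE 0.48, adjusted p = 0.000682), or by 0.79 (adjusted p = 0.217) against DMSO cells, and had -0.43 (adjusted p = 0.521) in Hep3B-CR cells. In Huh7 it had 32.3 and 27.7 CPM in parental, 10.8 and 36.3 CPM in IR and 32.9 and 44.5 CPM in CR cells, and was called in neither.

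**Figure D3:**
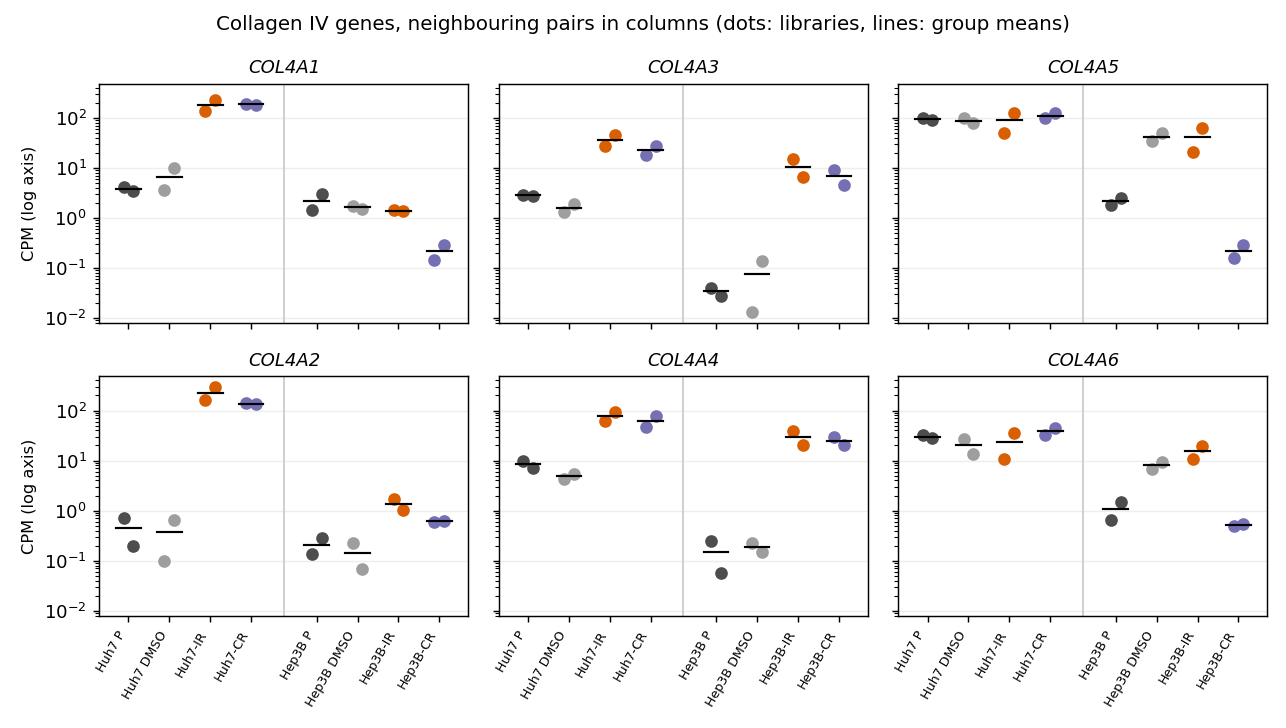
CPM on a log axis of the 6 collagen IV genes in the 8 groups, with 1 dot per library, a line at each group mean, P for parental and the genes of a neighbouring pair in 1 column. The first pair is high in resistant Huh7 cells, the second in all resistant lines, and the third in all Huh7 groups and in Hep3B DMSO and IR cells.

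The beaded filament, anchoring and related collagens numbered 8, of which 4 rose in each resistant Huh7 line and 1 rose and 1 fell in each resistant Hep3B line. Only 5 of the 8 were tested, and the shares of all tested genes were those given with the fibrillar genes. COL7A1 (chr3, 48601506 to 48632762), the chain of the anchoring fibrils that tie epithelium to the tissue below, rose in all 4. It had 1.19 and 0.228 CPM in Huh7 parental, 35.8 and 114 CPM in Huh7-IR and 25.4 and 15.7 CPM in Huh7-CR cells, and 0.673 and 0.352 CPM in Hep3B parental, 13.1 and 7.12 CPM in Hep3B-IR and 19.2 and 9.03 CPM in Hep3B-CR cells. The groups did not overlap in either line, although the Huh7-IR replicates were far apart. The change was 5.31 (SE 0.59, adjusted p = 1.42e-05) in IR and 3.68 (SE 0.59, adjusted p = 0.000387) in CR cells of Huh7, and 2.83 (SE 0.59, adjusted p = 0.00303) in IR and 3.24 (SE 0.59, adjusted p = 0.0011) in CR cells of Hep3B.

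Collagen VI, a microfibril of 3 different chains, stayed low. COL6A1 had 1.34 and 0.496 CPM in Huh7 parental, 11.9 and 9.22 CPM in Huh7-IR and 3.83 and 3.47 CPM in Huh7-CR cells, a change of 2.62 (SE 0.41, adjusted p = 0.000192) and 1.31 (SE 0.41, adjusted p = 0.0223). The DMSO replicates of Huh7, 1.76 and 8.504 CPM, reached into that range. The Huh7-CR call was lost without Huh7 parental replicate 2 (0.99, adjusted p = 0.167), Huh7-CR replicate 1 (1.26, adjusted p = 0.102) or Huh7-CR replicate 2 (1.37, adjusted p = 0.0694), and against DMSO cells the value was -0.14 (adjusted p = 0.813). COL6A3 rose from 0.102 and 0.0268 CPM to 1.28 and 0.965 CPM and 3.90 and 1.18 CPM, by 0.99 and 1.62. COL6A2, which did not pass the filter, had 0.32 and 0.188 CPM, 0.298 and 0.579 CPM and 0.124 and 0.249 CPM in the same groups and at most 2.23 CPM in any library. No collagen VI gene passed 1 CPM in Hep3B.

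COL26A1, whose product is little described, fell in Hep3B from 5.12 and 4.43 CPM to 0.91 and 0.895 CPM in IR and 0.477 and 1.39 CPM in CR cells, by -1.60 and -1.62 (adjusted p = 0.000303 and 0.000238). COL28A1 rose in Huh7 alone, from 1.21 and 0.656 CPM to 5.49 and 7.19 CPM and 4.53 and 3.32 CPM, by 1.93 and 1.35 (adjusted p = 1.07e-05 and 0.000267). COL18A1 (chr21, 46825080 to 46933634), a basement membrane collagen whose end piece is endostatin, had 79.8 and 42.1 CPM in Huh7 parental and 118 and 346 CPM in Huh7-IR cells. Its rise of 1.79 (SE 0.47, adjusted p = 0.00606) rested on the higher replicate, being 1.02 (adjusted p = 0.0726) without Huh7-IR replicate 2 and 1.33 (adjusted p = 0.0719) without Huh7 parental replicate 2. In Huh7-CR cells and in IR and CR cells of Hep3B the COL18A1 change was 0.53, 0.27 and 1.15, with adjusted p = 0.397, 0.724 and 0.0709. COL8A2 was called in no resistant line.

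Of the 12 laminin genes, 6 rose and 1 fell in each resistant Huh7 line, 4 rose and 1 fell in Hep3B-IR, and 5 rose and 1 fell in Hep3B-CR cells. Beside these counts, 31.1% and 20.9% of all tested genes were called higher in IR and CR cells of Huh7, and 17.8% and 13.6% lower. The shares for IR and CR cells of Hep3B were 15.7% and 20% higher, and 11.4% and 12.3% lower. Over all 12 the median log2 change was 1.10 in IR and 0.37 in CR cells of Huh7, and -0.01 in IR and 0.22 in CR cells of Hep3B. The medians over every gene of the table were 0 to 0.005. LAMB1 (chr7, 107564244 to 107643658) and LAMC1 (chr1, 182992555 to 183114727), the β and γ chains shared by most laminins, drew the most reads of the laminin genes in parental cells and moved in opposite directions. LAMB1 had 365 and 333 CPM in Huh7 parental, 1031 and 1061 CPM in Huh7-IR and 586 and 584 CPM in Huh7-CR cells, and 443 and 355 CPM in Hep3B parental, 809.6 and 786 CPM in Hep3B-IR and 817 and 864 CPM in Hep3B-CR cells. LAMC1 had 494 and 398 CPM, 197 and 244 CPM and 263 and 306 CPM in the Huh7 groups and 981 and 892 CPM, 344 and 411.3 CPM and 318 and 353 CPM in the Hep3B groups. Resistant and parental libraries did not overlap for either gene in either line.

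LAMB1 rose by 1.58 (SE 0.13, adjusted p = 1.15e-06) in IR and 0.75 (SE 0.13, adjusted p = 0.000601) in CR cells of Huh7, and 1.01 (SE 0.13, adjusted p = 0.000108) in IR and 1.08 (SE 0.13, adjusted p = 5.6e-05) in CR cells of Hep3B. The Huh7-CR value was under the fold threshold with GC centring, at 0.57, and against DMSO cells, at 0.41. LAMC1 changed by -1.01 (SE 0.18, adjusted p = 0.000452), -0.64 (SE 0.18, adjusted p = 0.0123), -1.31 (SE 0.18, adjusted p = 0.000188) and -1.48 (SE 0.18, adjusted p = 7.01e-05) in the same order, and its Huh7-CR call was lost without Huh7 parental replicate 1 (-0.49, adjusted p = 0.109) or Huh7-CR replicate 1 (-0.53, adjusted p = 0.102). Per kilobase of transcript, LAMB1 and LAMC1 had similar mean levels in Huh7 parental cells, 61.7 and 56.2 CPM per kb. In Huh7-IR cells these mean levels were 185 for LAMB1 and 27.8 CPM per kb for LAMC1. In Hep3B the order turned, from 70.6 for LAMB1 and 118 CPM per kb for LAMC1 in parental cells to 149 and 42.3 CPM per kb in CR cells.

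LAMA3 and LAMB3 code for chains of the laminin that anchors stratified epithelium. LAMA3 (chr18, 21269417 to 21536186) was low in Huh7 parental cells at 1.09 and 0.763 CPM and reached 68.0 and 131 CPM in Huh7-IR and 82.8 and 117 CPM in Huh7-CR cells, a change of 5.64 (SE 0.36, adjusted p = 2.02e-07) and 5.69 (SE 0.36, adjusted p = 2.67e-07). In Hep3B it was present in parental cells at 77.1 and 42.5 CPM and had 47.7 and 64.4 CPM in IR and 23.9 and 42.1 CPM in CR cells, with -0.05 and -0.83 (adjusted p = 0.956 and 0.0861). Resistant Huh7 cells thus ended above the level of most Hep3B libraries. Against the DMSO cells of Hep3B, which had 19.2 and 22.5 CPM, the Hep3B-IR value was 1.37 and called.

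LAMB3 (chr1, 209788215 to 209825770) was low and rose in all 4 resistant lines. It had 0.364 and 0.0402 CPM in Huh7 parental, 1.24 and 6.09 CPM in Huh7-IR and 5.22 and 3.90 CPM in Huh7-CR cells, and 0.296 and 0.338 CPM in Hep3B parental, 8.35 and 4.11 CPM in Hep3B-IR and 12.9 and 10.3 CPM in Hep3B-CR cells. The changes were 1.74 (SE 0.42, adjusted p = 0.0037), 2.21 (SE 0.42, adjusted p = 0.00133), 2.39 (SE 0.42, adjusted p = 0.00109) and 3.25 (SE 0.42, adjusted p = 0.000116), and no resistant library lay under a parental or DMSO library of its line in Huh7 or Hep3B.

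LAMA4 and LAMA2, α chains known from vessels and from muscle, rose in all 4 resistant lines from low levels. LAMA4 had 1.38 and 1.21 CPM in Huh7 parental, 4.41 and 12.2 CPM in Huh7 DMSO, 11.1 and 16.6 CPM in Huh7-IR and 6.49 and 8.30 CPM in Huh7-CR cells. In Hep3B it had 0.565 and 1.15 CPM in parental, 2.08 and 2.45 CPM in DMSO, 6.01 and 13.2 CPM in IR and 5.52 and 10.4 CPM in CR cells. The resistant Huh7 libraries overlapped the DMSO libraries of Huh7, and the resistant Hep3B libraries overlapped neither untreated group. The change against parental cells was 2.67 (SE 0.43, adjusted p = 0.00023), 1.86 (SE 0.43, adjusted p = 0.00434), 2.44 (SE 0.43, adjusted p = 0.00106) and 2.23 (SE 0.43, adjusted p = 0.00162). Against the DMSO cells it was 0.78 (adjusted p = 0.141) in Huh7-IR and -0.02 (adjusted p = 0.977) in Huh7-CR. LAMA2 reached at most 2.15 CPM, in Huh7-IR cells, and had at most 0.0873 CPM in any parental or DMSO library. Its changes were 1.24, 0.91, 0.81 and 1.11, and with a pseudocount of 4 CPM they were 0.25 to 0.45 and not called in any of the 4. The Huh7-CR call was lost without Huh7-CR replicate 1 (0.75, adjusted p = 0.0607) and the Hep3B-IR call without Hep3B parental replicate 1 (0.80, adjusted p = 0.0649), Hep3B parental replicate 2 (0.82, adjusted p = 0.0679) or Hep3B-IR replicate 1 (0.75, adjusted p = 0.0855).

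LAMB2 (chr3, 49158547 to 49170551), a β chain of mature basement membranes, rose in Huh7 from 42.8 and 32.8 CPM to 209.6 and 306 CPM in IR and 96.6 and 149 CPM in CR cells, by 2.72 (SE 0.31, adjusted p = 1.86e-05) and 1.66 (SE 0.31, adjusted p = 0.00126). Huh7 DMSO cells had 55.5 and 119.7 CPM, and against them the Huh7-CR value was 0.55 (adjusted p = 0.179). In Hep3B it had 46.0 and 40.3 CPM in parental, 29.7 and 24.0 CPM in IR and 28.8 and 28.5 CPM in CR cells, with -0.67 and -0.57 (adjusted p = 0.125 and 0.17). LAMA5, the main α chain of adult epithelial membranes, was called in no resistant line, with 58.3 and 28.3 CPM in Huh7 parental, 39.3 and 160.3 CPM in Huh7-IR, 61.6 and 45.3 CPM in Hep3B parental and 66.3 and 40.5 CPM in Hep3B-IR cells. One LAMA5 replicate of Huh7-IR lay between the parental ones and the other far above them.

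**Figure D4:**
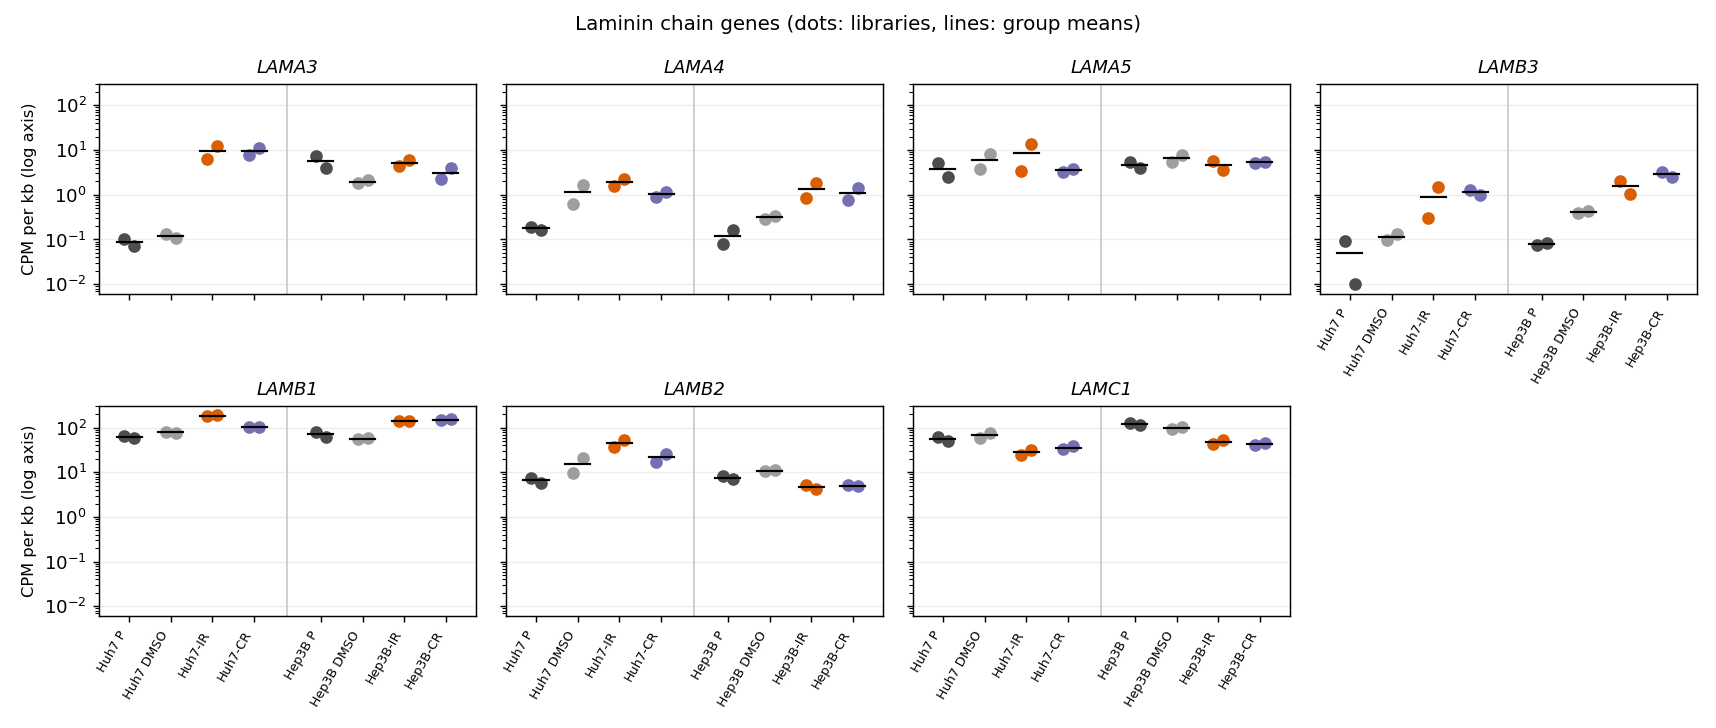
CPM per kilobase of transcript, on a log axis, of 7 laminin genes in the 8 groups, with 1 dot per library, a line at each group mean and P for parental. LAMB1 is the highest chain in every Huh7 group and in resistant Hep3B cells, and LAMA3 rises in resistant Huh7 cells to levels above most Hep3B libraries.

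Whether the resistant cells of the 2 lines changed alike was tested by taking the average change of the IR and the CR cells in Huh7 minus that in Hep3B. Of the 56 members 17 differed, beside 29.4% of all tested genes, with 14 higher in Huh7 (16.3% of all tested genes) and 3 lower (13.1%). With no filter on low values 17 of the 56 were also called, beside 17% of all genes with a read. The largest positive differences were in COL4A2 (6.23 (SE 0.35, adjusted p = 2.84e-07)), COL4A1 (6.13 (SE 0.44, adjusted p = 1.53e-06)), LAMA3 (6.10 (SE 0.44, adjusted p = 1.53e-06)) and COL1A2 (4.97 (SE 0.48, adjusted p = 1.91e-05)). COL14A1 gave the largest negative one (-9.69 (SE 0.46, adjusted p = 1.16e-07)), followed by COL12A1 (-2.94 (SE 0.39, adjusted p = 0.000176)), which rose in both lines and more in Hep3B. For COL1A1 the difference was -0.57 (SE 0.68, adjusted p = 0.561), for COL4A3 -0.22 (SE 0.45, adjusted p = 0.753) and for LAMB1 0.12 (SE 0.15, adjusted p = 0.595), none of them called. A change on the scale of CPM + 1 is smaller for genes that start low, and COL1A1, COL4A3 and COL4A4 started lower in Hep3B. As ratios of mean CPM to the parental mean, COL1A1 had 72.8 in IR and 40.2 in CR cells of Huh7. In Hep3B these ratios were 366 and 557, over parental libraries with 12 and 3 COL1A1 reads.

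**Figure D5:**
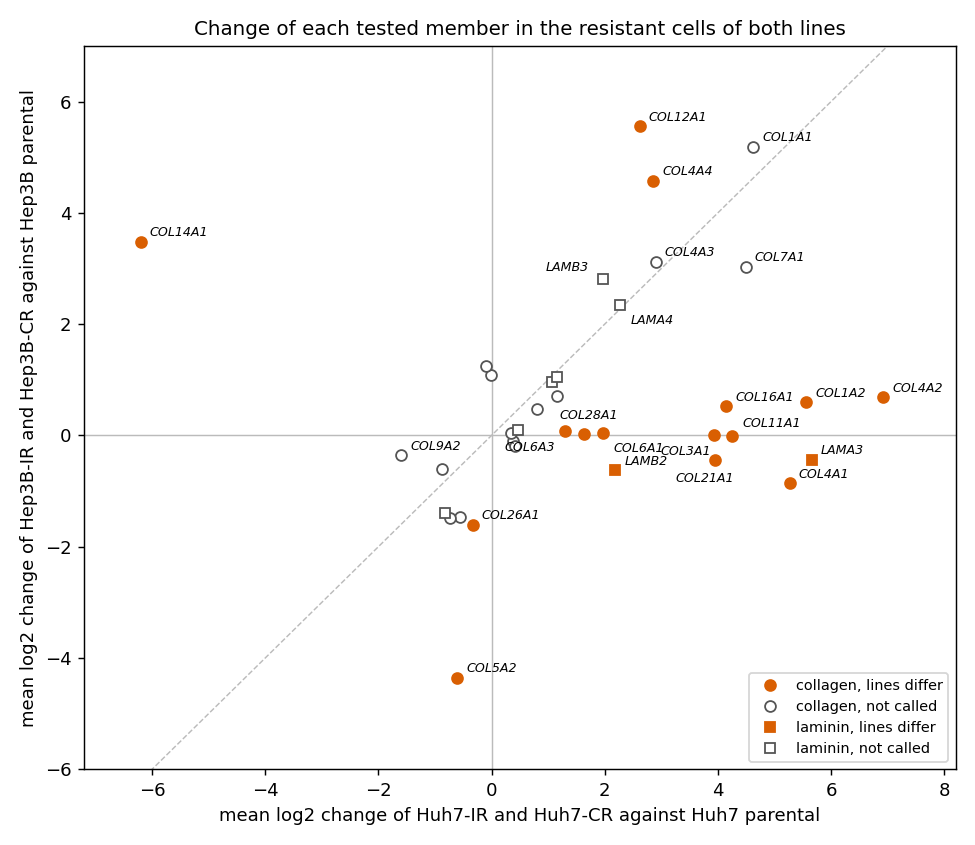
Mean log2 change of IR and CR cells against parental cells in Huh7 (horizontal) and Hep3B (vertical) for 37 tested members, with circles for collagens, squares for laminins, filled orange where the lines differed, and a dashed line where both changes are equal. COL4A2, COL4A1, LAMA3 and COL1A2 lie far to the right near 0 on the vertical axis, and COL14A1 alone lies far to the upper left.

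The lines differed before resistance too. Between the parental cells 21 of the 56 members were called, 14 higher in Huh7 and 7 higher in Hep3B, beside 42.6% of all tested genes. With no filter on low values 19 were called, beside 26% of all genes with a read. The largest difference was in COL14A1 (8.68 (SE 0.38, adjusted p = 4.26e-09)), then LAMA3, which was higher in Hep3B (-4.92 (SE 0.36, adjusted p = 3.39e-07)), COL4A5 (4.91 (SE 0.45, adjusted p = 2.49e-06)) and COL4A6 (3.92 (SE 0.48, adjusted p = 2.97e-05)). As ratios, the LAMA3 and COL14A1 levels of the 2 lines lay closer together in resistant than in parental cells. In CPM the LAMA3 gap between the lines was not smaller in CR cells. The COL14A1 means were 2293 and 4.68 CPM in Huh7 and Hep3B parental cells against 34.3 and 108 CPM in IR and 30.6 and 35.4 CPM in CR cells. For LAMA3 they were 0.927 and 59.8 CPM in parental, 99.7 and 56.03 CPM in IR and 99.7 and 33.0 CPM in CR cells.

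IR and CR cells were also compared with each other. With no filter on low values 2 of the 56 members differed in Huh7, beside 6.61% of all genes with a read. In the main fit 5 differed, beside 13.7% of all tested genes. COL16A1, COL6A1, LAMB2 and LAMB1 were higher in IR and COL3A1 was higher in CR cells. LAMB1 (0.84 (SE 0.13, adjusted p = 0.00193)) was called in every alternative, and COL3A1 (-1.94 (SE 0.32, adjusted p = 0.00304)) in each one but the fit of the Huh7 libraries alone (adjusted p = 0.0778). The LAMB2 call (1.07) was lost without Huh7-IR replicate 2 (0.80), Huh7-CR replicate 1 (0.76) or Huh7-CR replicate 2 (1.38), the COL16A1 call (1.40) without any of the same 3 (0.90, 1.22 and 1.57), and the COL6A1 call (1.30) without any 1 of the 4 libraries (1.14 to 1.47).

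With no filter 7 of the 56 members differed in Hep3B, beside 5.74% of all genes with a read. In the main fit 8 differed, beside 11.7% of all tested genes. COL4A5 (4.94 (SE 0.45, adjusted p = 3.84e-05)), COL4A6 (3.35 (SE 0.48, adjusted p = 0.000954)), COL19A1 (2.71), COL14A1 (1.61) and COL9A3 (1.19) were higher in IR cells. COL12A1 (-1.71) and COL5A2 (-1.58) were higher in CR cells. The COL12A1 call was lost without Hep3B-IR replicate 2 (-1.20, adjusted p = 0.0531), that of COL14A1 without Hep3B-IR replicate 1 (1.61), Hep3B-IR replicate 2 (1.61) or Hep3B-CR replicate 1 (1.34), and that of COL9A3 without any 1 of the 4 (1.08 to 1.29).

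DMSO cells served as the background for these changes. In Huh7 1 member was called between DMSO and parental cells, LAMA4 (1.88 (SE 0.43, adjusted p = 0.0308)), beside 4.83% of all tested genes, and it was not called without either Huh7 parental replicate (1.94 and 1.83) or without Huh7 DMSO replicate 2 (1.24). In Hep3B 4 were called, all higher, beside 1.58%. These were COL2A1 (4.43 (SE 0.58, adjusted p = 0.00271)), COL4A5 (3.73 (SE 0.45, adjusted p = 0.00192)), COL4A6 (2.13 (SE 0.48, adjusted p = 0.0493)) and COL11A2 (0.78 (SE 0.16, adjusted p = 0.0357)). The last 2 calls were lost when any 1 of the 4 libraries was left out, at 1.83 to 2.43 for COL4A6 and 0.68 to 0.87 for COL11A2. COL1A1, COL4A1, COL4A2, COL4A3, COL4A4, COL7A1, COL12A1 and LAMB1 were called in neither DMSO comparison. With no filter on low values 0 of the 56 members were called in Huh7, beside 1.64% of all genes with a read. In Hep3B 3 were called with no filter, beside 0.806%.

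The other 18 members did not pass the filter, and 16 of them stayed under 1 CPM in every library. They were COL5A1, COL5A3, COL6A2, COL6A5, COL6A6, COL8A1, COL9A1, COL10A1, COL13A1, COL15A1, COL17A1, COL20A1, COL22A1, COL23A1 and COL25A1, with LAMA1, LAMB4 and LAMC3. LAMA1, the α chain of embryonic basement membranes, had at most 0.0497 CPM, and LAMC3 at most 0.286 CPM. The 18 were not tested, although COL22A1 had 0.188 to 0.648 CPM in parental and DMSO cells of Huh7 and at most 0.0309 CPM in resistant Huh7 cells.

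Start site regions of 41 of the 56 members were found in the RefSeq table. The SP1 motif was present in 24 of them, 58.5%, against 44.6% of all 27305 regions of the same length, the SNAI and ZEB motif in 9, 22.0% against 20.6%, and the HIF motif in 5, 12.2% against 21.6%. TEAD was matched in COL12A1 and LAMA2, 4.9% against 14.0%, and AP-1 in LAMA3 alone, 2.4% against 7.8%.

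Genes that make, export, hold or bind these chains were counted in the same comparisons, in the order IR and CR cells of Huh7, then IR and CR cells of Hep3B. In that order 31.1%, 20.9%, 15.7% and 20% of all tested genes were called higher. The shares called lower were 17.8%, 13.6%, 11.4% and 12.3%. Of 18 genes for collagen modification and folding 8, 8, 3 and 6 rose and 3, 3, 1 and 0 fell. COLGALT2, which adds galactose to collagen, rose from 0.568 and 0.777 CPM in Huh7 parental to 25.4 and 18.2 CPM in Huh7-IR and from 3.51 and 5.50 CPM in Hep3B parental to 31.4 and 43.1 CPM in Hep3B-CR cells, with a mean of the 4 log2 changes of 3.09. P4HA2, a subunit of the prolyl hydroxylase that stabilises the triple helix, had a mean of 1.35. Of 17 genes for export, processing and crosslinking 5, 3, 3 and 4 rose and 4, 3, 2 and 2 fell, with PCOLCE2, an enhancer of procollagen cleavage, lower in all 4 (mean -2.33) and MIA2, of the export machinery, higher in all 4 (mean 0.80).

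Other basement membrane genes fell more often than they rose, with 3, 3, 2 and 2 of 12 higher and 5, 5, 4 and 6 lower. Of all tested genes 31.1%, 20.9%, 15.7% and 20% were called higher and 17.8%, 13.6%, 11.4% and 12.3% lower. SPARC, a collagen-binding glycoprotein of these membranes, rose from 12.02 and 8.16 CPM in Huh7 parental to 561 and 562 CPM in Huh7-IR and from 0.121 and 0.169 CPM in Hep3B parental to 38.1 and 39.3 CPM in Hep3B-CR cells (mean of the 4 log2 changes 4.92). It had 366 and 445 CPM in Huh7-CR and 18.5 and 10.1 CPM in Hep3B-IR cells. FBLN1, which codes for fibulin-1, fell from 63.9 and 44.2 CPM to 0.315 and 0.257 CPM in Huh7-IR and from 176 and 220.1 CPM to 94.8 and 63.5 CPM in Hep3B-CR cells (mean -3.12). Its levels were 1.04 and 1.48 CPM in Huh7-CR and 107 and 71.6 CPM in Hep3B-IR cells. Of 16 receptors 8, 9, 6 and 10 rose and 0, 0, 2 and 2 fell, beside the same shares of all tested genes. ITGA3, the α3 integrin chain of a laminin receptor, rose from 1.21 and 0.616 CPM to 702 and 611 CPM in Huh7-IR and from 1.29 and 0.76 CPM to 486 and 521.1 CPM in Hep3B-CR cells (mean 7.05), and ITGB4, the β4 chain that binds the LAMA3 laminin, had a mean of 3.27. Of 16 other matrix genes 2, 4, 3 and 3 rose and 5, 4, 0 and 1 fell, none of them in all 4, beside the same shares.

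Because fibrillar collagen is also a product of stellate cells and fibroblasts, their markers were set beside the collagen results. Of 9 such markers 3, 3, 1 and 1 rose and 1, 1, 1 and 1 fell in the same order. Beside them 31.1%, 20.9%, 15.7% and 20% of all tested genes were called higher and 17.8%, 13.6%, 11.4% and 12.3% lower. The summed level of the 9 markers was 116 to 198 CPM in Huh7 parental, 21.2 to 25.1 CPM in Huh7-IR and 38.2 to 70.6 CPM in Huh7-CR cells. In Hep3B it was 36.6 to 53.2 CPM in parental, 28.9 to 50.4 CPM in IR and 17.2 to 22.0 CPM in CR cells. Most of the fall of this sum in Huh7 was PDGFRA, with 107 and 190 CPM in parental, 1.81 and 2.79 CPM in IR and 13.8 and 17.6 CPM in CR cells. RGS5, a pericyte marker, rose from 7.87 and 7.86 CPM to 17.9 and 15.2 CPM in IR and 14.2 and 40.5 CPM in CR cells of Huh7 and was also called higher in Hep3B-CR cells. PDGFRB rose in Huh7, from 0.189 and 0.522 CPM to 2.09 and 1.29 CPM in IR and 2.02 and 2.28 CPM in CR cells, and fell in Hep3B-IR cells. Of the other markers THY1, DPT, FAP and DES had at most 0.0569, 0.0497, 0.417 and 0.431 CPM, and LRAT at most 3.99 CPM. ACTA2 rose in Huh7, to 2.30 and 1.65 CPM in IR and 7.39 and 9.83 CPM in CR cells, and had at most 0.0781 CPM in any Hep3B library. Of 5 endothelial markers none rose in a resistant line, and their sum was at most 6.35 CPM in any library. Of 4 leukocyte markers CD68 rose in all 4 lines, while CD3E had at most 0.0530 CPM and PTPRC at most 1.32 CPM. PTPRC had 1.02 and 0.991 CPM in Huh7 parental, 0.0663 and 0.0429 CPM in Huh7-IR and 0.216 and 0.262 CPM in Huh7-CR cells. CD14 had 2.66 and 3.95 CPM, 0.464 and 1.33 CPM and 1.55 and 6.505 CPM in the same groups. Of 4 biliary markers KRT7, with at most 21.0 CPM, rose in Huh7-IR, Huh7-CR and Hep3B-CR cells. EPCAM had 50.7 and 53.8 CPM in Huh7 parental, 21.6 and 51.7 CPM in Huh7-IR and 29.9 and 36.2 CPM in Huh7-CR cells. In Hep3B it had 582 and 524 CPM in parental, 598 and 672 CPM in IR and 604 and 545 CPM in CR cells. Over all libraries KRT19 lay between 90.3 and 298 CPM and SOX9 between 65.4 and 110.0 CPM. Of 9 hepatocyte markers 8, 7, 3 and 6 fell and 0, 0, 1 and 0 rose. The shares of all tested genes named above stand beside each of these marker lists. The part of all these markers in the collagen and laminin results was not tested. In such bulk RNA, fewer cells of a kind and less RNA per cell cannot be told apart.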

How the data were processed

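Poly(A) RNA of 16 libraries was sequenced with 2 replicates per group, taken from the sample titles. The labels name a stranded mRNA kit, whereas the study's methods state triplicates and a total RNA kit. The authors mapped reads to hg19 with STAR, kept unique hits, counted them over RefSeq exons and deposited CPM by gene ID, of which 26111 of 26258 were matched to a symbol. CPM steps returned whole reads for 100% of values within 0.05 reads, and edgeR 4.0.16 and DESeq2 1.42.0 on these reads were alternatives. One model of 8 groups was fitted to log2(CPM + 1) by limma (version 3.58.1, with a trend, under R 4.3.3) for the 15019 genes that reached 1 CPM in 2 or more libraries. Two-sided p-values were Benjamini-Hochberg adjusted over all of them, and calls needed an adjusted p under 0.05 and an absolute log2 change of at least 0.58 (1.49-fold). The fit was tested on simulated data.

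Other alternatives were TMM factors, quantile normalization, pseudocounts of 0.25 and 4 CPM, no filter, 1 CPM in at least 4 libraries, the libraries of 1 line alone, a replicate block, centring by 20 bins of GC content, unadjusted p, DMSO as reference, and leaving out each library. In the last case the lone replicate is assumed to vary like the other groups. GC content was known for 95.3% of tested genes. Values per library were given for members called in 1 direction in at least 3 of the 4 resistant lines, for the 3 largest called rises and falls in each, and for a set of chains chosen by role. From each pathway list the text names the 2 genes with the largest mean change among those called in all 4. Other members are given where a count or class needed them. Members and lists were chosen with earlier results of these data known. Gene positions are from GENCODE on GRCh37. The 8 antisense and pseudogene symbols were left out. One tested member stands in the counts but is not reported here by name or plotted. Reads of a gene and an antisense partner cannot be told apart where strand was not used.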

Additional observations from a re-analysis of the deposited data

Results flagged for a closer look

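For 17 members the change of the resistant cells differed between Huh7 and Hep3B by the interaction term of the limma model, at an adjusted p under 0.05. The values are the mean log2 change of IR and CR cells in Huh7 minus that in Hep3B, and every one of the 17 members is named here. Among the collagen IV genes it was 6.23 for COL4A2, 6.13 for COL4A1 and -1.72 for COL4A4. For fibrillar collagen genes it was 4.97 for COL1A2, 4.26 for COL11A1, 3.93 for COL3A1 and 3.75 for COL5A2. COL5A2 fell far more in Hep3B than in Huh7, which is why its difference is positive. For fibril-associated collagen genes the difference was -9.69 for COL14A1, -2.94 for COL12A1, 3.62 for COL16A1 and 4.40 for COL21A1. Of these COL14A1 fell in both resistant Huh7 lines and rose in both resistant Hep3B lines. For the remaining collagen genes it was 1.92 for COL6A1, 1.23 for COL6A3, 1.28 for COL26A1 and 1.61 for COL28A1. Among the laminin genes it was 6.10 for LAMA3 and 2.81 for LAMB2. The difference was not called for COL26A1 and COL6A1 with edgeR (0.97 and 1.73, adjusted p = 0.394 and 0.374) nor for COL6A3 (3.93, adjusted p = 0.0558), and for COL4A4 it was -0.97 (adjusted p = 0.0902) with DMSO cells as the reference. Without Huh7 parental replicate 2 it was 1.59 (adjusted p = 0.0721) for COL6A1 and 1.18 (adjusted p = 0.0551) for COL6A3. With groups of 2 libraries, no single library could be tested as an outlier.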

How the results depend on the processing

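In the 4 comparisons of resistant with parental cells, all 72 counts of members under the alternatives lay within 1.5 times the main count, from 23 to 32 in Huh7-IR, 20 to 29 in Huh7-CR, 15 to 19 in Hep3B-IR and 14 to 24 in Hep3B-CR cells, and 62 of 87 calls were kept under every alternative. These counts join rises and falls, and the split between them moved more. In Hep3B-CR cells 11 rose and 6 fell in the main fit. With GC centring, or with DMSO cells as reference, 11 rose and 12 fell there. In Huh7-IR cells 25 rose and 3 fell in the main fit, against 22 and 8 with GC centring. Signs turned for COL11A2 in Huh7-IR with GC centring (-0.058, also with the replicate block), for COL19A1 in Hep3B-IR without 1 library (-1.22 to 1.01), and with DMSO cells as reference for COL6A1 (-0.142) and LAMA4 (-0.020) in Huh7-CR, for COL4A5 (-0.172) and LAMA3 (1.37) in Hep3B-IR and for the COL4A5 difference between lines (2.74). The causes were not tested. The replicate numbers pair nothing in the labels. The differences of replicate 2 minus replicate 1 across genes correlated between 2 groups by -0.22 to 0.439. With the replicate block, counts of members were 28, 25, 18 and 19 in the resistant lines, and 3 in Huh7-IR against Huh7-CR.

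The smaller comparisons moved more. Huh7 DMSO against parental gave 8 members with unadjusted p or DESeq2, 2 with edgeR, GC centring or the replicate block with GC centring, 0 with a pseudocount of 4 CPM, no filter or Huh7 libraries alone, and 0 to 11 without 1 library, the 11 without Huh7 DMSO replicate 1. Hep3B DMSO gave 9 with unadjusted p and 2 with edgeR, quantile normalization, 1 CPM in 4 libraries, GC centring with or without the replicate block, and without any 1 library. Huh7-IR against Huh7-CR gave 10 with unadjusted p, 3 with edgeR, 2 with TMM factors, no filter or GC centring, 1 with Huh7 libraries alone, and 2 to 10 without 1 library (2 without Huh7-CR replicate 1, 10 without Huh7-IR replicate 1). Hep3B-IR against Hep3B-CR gave 5 to 7 without 1 library, the 5 without Hep3B-IR replicate 2. Depth left members under 1 CPM with few reads, and these were tested where no filter was used.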
